A study of Mus musculus with 24 samples.

Results

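The genes of the m6A writer complex were followed in nuclear RNA of mouse ES cells. They were chosen by symbol, through the Ensembl identifier with its version removed, and all 9 were found among the 47937 genes of the count data: *Mettl3*, *Mettl14*, *Wtap*, *Virma*, *Zc3h13*, *Rbm15*, *Rbm15b*, *Cbll1* and *Mettl16*. Their RNA level was read from RNA-seq (8 libraries), and the recovery of their own transcripts by an m6A antibody from MeRIP-seq (16 libraries), in which nuclear RNA is sequenced before (input) and after (IP) immunoprecipitation. Each group had 2 biological replicates. WT26 are wild type ES cells, and the *Mettl14* KO cells are one CRISPR/Cas9 clone made in WT26 (A10), in which a frame shift leaves a truncated Mettl14 protein and in which the MT-A70 domain of *Mettl3*, also targeted by a guide, is intact. RBC cells carry Rosa26 BirA-V5 and Cre-ERT2, and the *Mettl3* KO cells are one clone (2c4d) derived from RBC and carry both alleles as well. The RNA-seq labels give the strain of all 4 lines as 129/Sv x C57Bl6. All lines were grown with serum replacement and LIF on gelatin, and each knockout was compared with its own parental line, so that clone and knockout cannot be told apart.

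The writer complex methylates adenosine at the N6 position in RNA made by RNA polymerase II, mainly within the sequence context known as RRACH (R is A or G, H is A, C or U) and often near the end of the coding sequence and in long exons. Mettl3 is the catalytic subunit and Mettl14 is its partner, which holds the substrate RNA and does not itself bind the methyl donor. Wtap anchors this pair to a set of regulatory proteins: Virma, the large scaffold, Zc3h13, which retains the complex in the nucleus, the RNA-binding paralogues Rbm15 and Rbm15b, and Cbll1 (Hakai). Mettl16 is a separate m6A methyltransferase that acts on U6 snRNA and on the transcript of *Mat2a*, the enzyme that makes the methyl donor S-adenosylmethionine. In ES cells the complex is known for marking transcripts of pluripotency factors for turnover.

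Each member transcript itself holds GGACT, the most common form of the context. The windows below are the GGACT nearest to the end of the coding sequence in one annotated transcript per gene, with 10 bases on each side, on the transcript strand of GRCm38 (GENCODE M21) and with GGACT in capitals. They are shown because the IP results below are about these transcripts.
Mettl3: caccttaagaGGACTgtttacgcaa
Mettl14: cccaccccagGGACTggcagttgtc
Wtap: agaatggcttGGACTcaaatgtaaa
Virma: tttaacaacaGGACTgcatatgtgt
Zc3h13: gtttcagacgGGACTctgcaatccg
Rbm15: gaggtgatcgGGACTtgcccagcag
Rbm15b: ttttggaaggGGACTggaccagcct
Cbll1: ttattttataGGACTgtttaaagtt
Mettl16: agaggactttGGACTttctattgat

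The windows of *Mettl3* (chr14:52294908-52294932, minus strand, exon 11 of 11), *Mettl14* (chr3:123369253-123369277, minus strand, exon 11 of 11) and *Cbll1* (chr12:31486483-31486507, minus strand, exon 6 of 6) lay after the stop codon, at 63, 122 and 785 bases from the coding end. The windows of *Wtap* (chr17:12967490-12967514, minus strand, exon 8 of 8), *Zc3h13* (chr14:75339423-75339447, plus strand, exon 18 of 19), *Rbm15* (chr3:107331180-107331204, minus strand, exon 1 of 2), *Rbm15b* (chr9:106885319-106885343, minus strand, its single exon) and *Mettl16* (chr11:74784112-74784136, plus strand, exon 3 of 10) were coding. The *Virma* window was coding too and crossed the junction after exon 19 of 24, so that it spans chr4:11540631-11542120 on the plus strand. Coding windows lay 33 (*Wtap*), 207 (*Zc3h13*), 892 (*Virma*), 999 (*Rbm15*), 1026 (*Rbm15b*) and 1466 (*Mettl16*) bases from the coding end. Of these genes, *Mettl16* also held 12 GGACT after the stop codon, *Rbm15b* 3 and *Wtap* 2, and *Virma*, *Zc3h13* and *Rbm15* 0. GGACT was searched on the transcript strand only, and 87.2% of 21594 protein-coding genes hold at least one. Its density was 2.427 per kb in *Wtap*, higher than in 93.76% of these genes, and 1.975 per kb in *Mettl3*. It was lowest in *Rbm15*, at 0.461 per kb, with 20.25% of genes lower, and the median gene had 1.016 per kb. The members also differed in exon structure, from a longest exon of 405 bases in *Mettl3* to 3459 in *Rbm15*, 6511 in *Rbm15b* and 11367 in *Mettl16*. A match of this word is a description and not a methylated site.

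RNA-seq libraries held 11321459 to 13743181 reads on genes and MeRIP-seq libraries 9394163 to 28441282 on genes and repeats. A member had 196 to 4631 reads in an RNA-seq library, 109 to 2662 in an input and 76 to 9810 in an IP library. Replicates differed beyond sampling noise in each of the 12 groups, by a chi-square over its degrees of freedom that was 2.95 to 39.83 in RNA-seq, the highest in RBC, and 24.14 to 215.72 in MeRIP-seq, the highest in the IP of RBC. All 10 ES cell markers were detected in each line. Their summed normalised count was 28639.4 and 29206.0 in WT26 against 20731.7 and 20282.7 in *Mettl14* KO, and 26309.9 and 26159.9 in RBC against 18311.1 and 18444.5 in *Mettl3* KO cells. In *Mettl14* KO 10 of 10 were lower (log2 fold change -1.02 to -0.17), beside 27.0% of tested genes. In *Mettl3* KO 9 were lower, down to -2.03 for *Dppa5a*, and 1 was higher, *Klf4* at 0.58. Of all tested genes 28.1% were lower there and 25.2% higher. The 6 primitive endoderm markers summed to 173.2 and 166.4 in *Mettl14* KO against 56.0 and 55.9 for WT26, and to 101.7 and 124.9 in *Mettl3* KO against 126.4 and 133.1 for RBC. The 5 neural markers summed to 836.2 and 853.4 in *Mettl14* KO against 938.7 and 956.6 for WT26. For *Mettl3* KO the sums were 1625.2 and 1680.0 against 1447.3 and 1454.1 for RBC. Single neural markers did not all follow these sums, which were not tested. In *Mettl14* KO the log2 fold change was -1.09 for *Tubb3*, -0.04 for *Nes* and -0.065 for *Sox1*, but 1.96 for *Pax6* and 0.73 for *Map2*. In *Mettl3* KO it was 0.45 for *Tubb3*, 1.21 for *Pax6*, 0.20 for *Sox1*, -0.02 for *Nes* and -0.30 for *Map2*. The part of this marker shift in the values below was not tested, and fewer cells of a type cannot be told apart from less RNA per cell in bulk samples.

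The writer genes were not equally abundant. Normalised read counts per kb of annotated exon, averaged over the 8 libraries, were highest for *Rbm15* (361.0) and *Zc3h13* (338.0), at the 91.7 and 90.8 percentile of 16947 tested genes. They were followed by *Wtap* (225.0), *Virma* (210.0), *Mettl3* (171.0), *Mettl16* (128.0) and *Rbm15b* (118.0). *Cbll1* (66.9) and *Mettl14* (50.7) were lowest, and *Mettl14* was close to the median, at the 47.5 percentile. In WT26 the order per kb was *Rbm15*, *Zc3h13*, *Wtap*, *Virma*, *Mettl3*, *Rbm15b*, *Mettl16*, *Cbll1* and *Mettl14*, with no overlap of replicates between neighbours. In RBC the replicates of *Virma* and *Wtap*, of *Rbm15b* and *Mettl16* and of *Cbll1* and *Mettl14* overlapped, and in *Mettl3* KO cells those of *Virma* and *Wtap*. *Mettl14* was last in all 4 lines. Annotated exon length includes exons that ES cells may not use, so these levels compare genes only roughly.

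**Figure D1:**
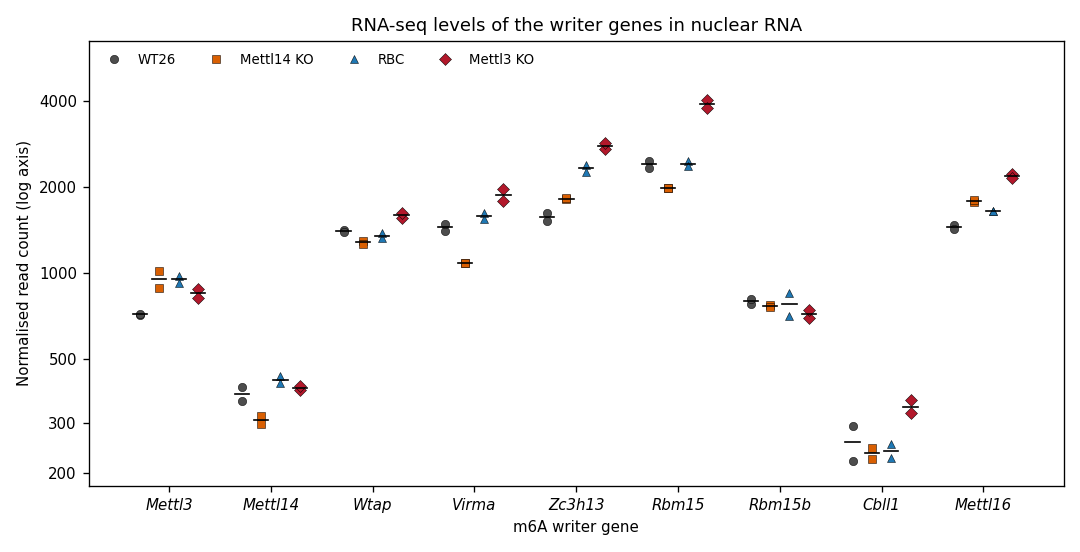
Normalised RNA-seq read counts (log axis) of the 9 writer genes in the 2 replicates of each line, with a bar at the mean. *Rbm15* stands apart in *Mettl3* KO cells, at 4027.1 and 3768.1 against 2460.1 and 2371.9 in RBC, and transcripts of both targeted genes are present in every library.

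A first comparison asked how the writer genes responded to loss of Mettl14 (*Mettl14* KO minus WT26) and to loss of Mettl3 (*Mettl3* KO minus RBC). In *Mettl14* KO cells 7 of 9 members passed the test, 3 higher and 4 lower, where 52.5% of the 17021 tested genes passed, 25.5% higher and 27.0% lower. In *Mettl3* KO cells 6 of 9 passed, all of them higher, where 53.4% of tested genes passed, 25.2% higher and 28.1% lower. The number of lower members there was 0 by edgeR, 1 at an unadjusted p under 0.05 and 0 by DESeq2. The members were chosen by function and not at random, so nothing particular to them is read from these shares. Fold changes were small. On the log2 scale they ran from -0.41 to 0.41 after loss of Mettl14 and from -0.16 to 0.69 after loss of Mettl3, and none exceeded 1, a size that 14.5% and 13.6% of tested genes passed with an adjusted p of at most 0.05. The members' median was -0.13 for *Mettl14* KO, where the median of all tested genes was 0.0, and 0.25 for *Mettl3* KO, where it was -0.0016. All adjusted p-values are those of edgeR's quasi-likelihood test over all tested features.

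The catalytic pair came first. *Mettl3* RNA was higher in *Mettl14* KO cells, with 1020.6 and 885.5 normalised counts against 714.4 and 720.4 for WT26 (log2 fold change 0.41, SE 0.0716, adjusted p = 0.00011), and its level there, 953.1 ± 95.5 normalised counts (SD, n = 2), was close to the 953.3 ± 36.2 of RBC. RBC itself, at 927.7 and 978.9, stood above WT26 for this gene (log2 difference 0.41, adjusted p = 0.00018). The *Mettl3* KO replicates, at 880.0 and 820.9, lay below both RBC replicates, but with an adjusted p of 0.059 (0.046 in a fit blocked on replicate number). The annotated exons of *Mettl3* share 933 bases (18.38%) with *Tox4* on the opposite strand, and *Tox4* was lower by a log2 value of -0.50 after loss of Mettl3 (-0.04 after loss of Mettl14). The counting tool and strand setting of the RNA-seq counts are not given in the sources used here, so reads of this pair may not be separated. *Mettl14* RNA fell in *Mettl14* KO cells, to 296.5 and 315.6 from 400.6 and 357.5 in WT26 (log2 fold change -0.31, SE 0.0871, adjusted p = 0.0061), but the adjusted p was 0.068 without replicate 1 of *Mettl14* KO and 0.094 without replicate 1 of WT26. The *Mettl3* KO replicates had 389.6 and 401.9 normalised counts of *Mettl14* against 435.7 and 412.1 for RBC, and the log2 fold change was -0.10 (SE 0.0838, adjusted p = 0.34).

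Of the core of the regulatory part, *Wtap* and *Virma* moved in opposite directions in the 2 knockouts. For *Wtap* the *Mettl14* KO replicates had 1296.0 and 1266.4 normalised counts against 1418.0 and 1392.5 for WT26. The *Mettl3* KO replicates had 1560.9 and 1629.7 against 1324.3 and 1380.2 for RBC. The groups did not overlap in either pair of lines. The log2 fold change was 0.24 against RBC (SE 0.0502, adjusted p = 0.00065). Against WT26 it was -0.13 (SE 0.0506, adjusted p = 0.034), a call lost without any one of the 4 libraries (adjusted p = 0.071 to 0.19) and by DESeq2 (0.15). For *Virma* the *Mettl14* KO replicates had 1089.7 and 1088.2 against 1403.5 and 1491.3 for WT26, and the *Mettl3* KO replicates 1784.4 and 1976.2 against 1541.6 and 1618.7 for RBC. It fell by 0.41 (SE 0.0577, adjusted p = 1.13e-05) in the one and rose by 0.25 (SE 0.0557, adjusted p = 0.00105) in the other, on the log2 scale.

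*Zc3h13* rose in both. Its normalised counts went from 1522.9 and 1623.3 for WT26 to 1810.8 and 1828.6 for *Mettl14* KO, and from 2387.6 and 2265.4 for RBC to 2714.0 and 2846.5 for *Mettl3* KO cells. The log2 fold changes were 0.21 (SE 0.0492, adjusted p = 0.0016) and 0.26 (SE 0.0475, adjusted p = 0.00018). The control lines differed more than this from each other, with RBC above WT26 by 0.56 on the log2 scale (adjusted p = 6.14e-08), so that both RBC replicates had more *Zc3h13* RNA than both *Mettl14* KO replicates.

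*Rbm15*, which recruits the complex to RNA, had the largest change among the members. The WT26 replicates had 2469.7 and 2339.4 normalised counts and the RBC replicates 2460.1 and 2371.9, a log2 difference of 0.01 (SE 0.0491, adjusted p = 0.93). The *Mettl14* KO replicates lay below all of these, at 1986.0 and 1990.3, and the *Mettl3* KO replicates above, at 4027.1 and 3768.1. The log2 fold change was -0.27 after loss of Mettl14 (SE 0.0493, adjusted p = 0.00015) and 0.69, or 1.61-fold, after loss of Mettl3 (SE 0.0485, adjusted p = 1.89e-09). Its paralogue *Rbm15b* passed in neither knockout. The *Mettl14* KO replicates had 772.2 and 759.9 against 781.3 and 811.7 for WT26, and the *Mettl3* KO replicates 697.4 and 743.3 against 854.1 and 709.8 for RBC, with overlap in the second pair. Its log2 fold changes of -0.06 (SE 0.0777, adjusted p = 0.57) and -0.12 (SE 0.0784, adjusted p = 0.22) missed the limit. Without replicate 2 of RBC the second was -0.25 (adjusted p = 0.018).

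*Cbll1*, which belongs to the E3 ubiquitin ligases, rose in *Mettl3* KO cells, from 225.3 and 253.4 normalised counts in RBC to 359.1 and 323.3 (log2 fold change 0.51, SE 0.118, adjusted p = 0.0014). In the other pair the replicates overlapped, with 223.3 and 245.5 for *Mettl14* KO against 293.0 and 221.2 for WT26 (-0.14, SE 0.122, adjusted p = 0.35). Without replicate 2 of WT26 this became -0.32 (adjusted p = 0.039). Gm29542, annotated antisense to it, shares 704 of its exonic bases. *Mettl16* was higher in each knockout than in its control. It went from 1475.8 and 1432.2 to 1766.7 and 1795.4 in *Mettl14* KO (log2 fold change 0.29, SE 0.0462, adjusted p = 4.00e-05) and from 1647.3 and 1649.3 to 2217.5 and 2147.4 in *Mettl3* KO cells (0.41, SE 0.0456, adjusted p = 7.37e-07). Its known target *Mat2a* fell by 0.32 on the log2 scale after loss of Mettl3 (adjusted p = 7.89e-05), with a log2 value of 0.02 after loss of Mettl14 (adjusted p = 0.78).

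**Figure D2:**
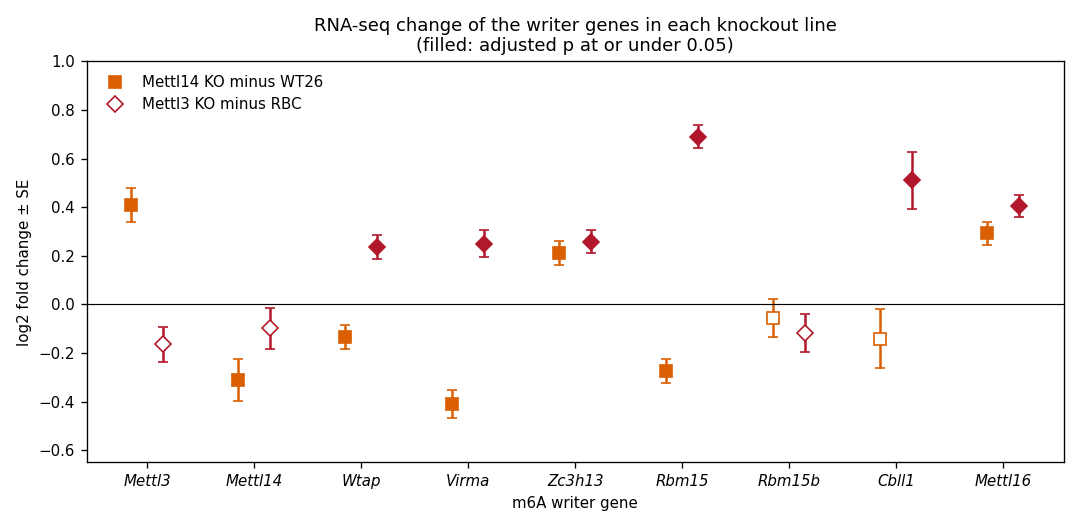
RNA-seq log2 fold change with its SE for each writer gene in *Mettl14* KO against WT26 and in *Mettl3* KO against RBC, filled where the adjusted p is at most 0.05. *Rbm15*, *Virma* and *Wtap* are filled on opposite sides of 0, while *Zc3h13* and *Mettl16* are above 0 in both.

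Whether both knockouts changed a gene unequally was tested directly, and 5 of 9 members passed, where 43.2% of all tested genes did. The change of *Rbm15* was lower in *Mettl14* KO than in *Mettl3* KO cells by 0.97 on the log2 scale (SE 0.0692, adjusted p = 6.58e-09). The differences were -0.66 for *Virma* (adjusted p = 3.68e-06), -0.65 for *Cbll1* (adjusted p = 0.0047; 0.052 without replicate 1 of WT26) and -0.37 for *Wtap* (adjusted p = 0.00041). *Mettl3* differed in the other direction, by 0.57 (adjusted p = 0.00017). For *Zc3h13* and *Mettl16*, the members that rose in both, the differences were -0.05 (SE 0.0684) and -0.11 (SE 0.0649), which did not pass. RBC and WT26 differed in 3 of 9 members, where 38.9% of tested genes differed and 19.7% were higher in RBC. These were *Mettl3*, *Zc3h13* and *Mettl16*, all higher in RBC. The call for *Mettl16* (0.18, adjusted p = 0.0049) was lost without replicate 2 of WT26 (adjusted p = 0.054) and with scaling by library size (0.032, adjusted p = 0.64).

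The inputs of MeRIP-seq gave another measurement of nuclear RNA in the same lines, with a larger spread. None of the 9 members passed edgeR's test there in either pair of lines (1 member in *Mettl14* KO and 0 in *Mettl3* KO at an unadjusted p under 0.05, and 0 and 0 by DESeq2), where 0.398% and 0.76% of 22621 tested features passed. *Mettl3* was 641.2 and 503.0 normalised counts in *Mettl14* KO inputs and 411.7 and 357.3 in WT26 inputs (log2 fold change 0.57, SE 0.228, adjusted p = 0.36). *Rbm15* was 2417.8 and 2464.7 in *Mettl3* KO inputs and 1598.6 and 1833.9 in RBC inputs, a log2 fold change of 0.51 (SE 0.472, adjusted p = 0.78). The replicates did not overlap in these 2 cases. *Wtap*, higher in *Mettl3* KO cells by RNA-seq, overlapped in the inputs, at 1157.1 and 1185.0 against 1102.8 and 1282.3 for RBC (log2 fold change -0.03, SE 0.32, adjusted p = 0.99). Blocked on replicate number, separately for input and IP, *Rbm15* passed in *Mettl3* KO inputs (adjusted p = 0.020), where 3.34% of features were higher.

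The next comparison asked whether the writer transcripts were themselves recovered by the m6A antibody. IP over input was taken for the whole gene, relative to the typical feature of a library, so it does not place a methylated site. In WT26, 5 of 9 member transcripts were enriched and 1 was depleted (16.9% and 16.1% of tested features), and in RBC 6 were enriched and 0 depleted (15.5% and 13.1%). The 0 depleted members of RBC are by edgeR, with 2 at an unadjusted p under 0.05 and 0 by DESeq2. These 2, *Mettl3* and *Mettl16*, passed as depleted once the replicate number was blocked. The members' median log2 IP over input was 1.04 in WT26 and 0.93 in RBC, with medians over all features of 0.02 in both. Each enriched transcript was that of a regulatory subunit, and the catalytic pair and *Mettl16* were not among them. The enrichment calls rest on replicate 2: without its IP or its input they were lost for the members and for nearly all other features alike. Most were also lost without input replicate 1. This loss is therefore not particular to the members. With 1 library left out, the log2 IP over input of *Rbm15* ran from 1.21 to 2.46 in WT26 and from 1.14 to 2.36 in RBC.

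*Rbm15* and *Rbm15b* were recovered most. *Rbm15* had 1528.3 and 1680.7 normalised counts in WT26 inputs and 3681.2 and 8824.8 in the IPs, a ratio of 2.41 in replicate 1 and 5.25 in replicate 2, and in RBC the ratios were 2.34 and 4.79. *Rbm15b* had ratios of 2.41 and 4.95 in WT26 and of 2.45 and 5.31 in RBC. Replicate 2 was the higher in both lines and for both paralogues. It was wider for all features too: the 90th percentile of log2 IP over input was 1.934 against 1.153 in WT26. In RBC it was 1.918 against 1.144. The fitted log2 IP over input was 1.96 (SE 0.487, adjusted p = 0.011) for *Rbm15* and 1.90 (SE 0.462, adjusted p = 0.011) for *Rbm15b* in WT26, and 1.87 (adjusted p = 0.016) and 1.93 (adjusted p = 0.013) in RBC.

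*Zc3h13* was recovered with ratios of 2.11 and 2.82 in WT26 and 2.3 and 3.1 in RBC, a log2 IP over input of 1.28 (adjusted p = 0.0059) and 1.42 (adjusted p = 0.0063). *Wtap* had ratios of 1.57 and 3.07 in WT26 and 1.56 and 2.51 in RBC (log2 values 1.18 and 1.05, adjusted p = 0.016 and 0.029). *Virma* had ratios of 1.61 and 2.49 in WT26 and 1.47 and 2.33 in RBC (1.04 and 0.93, adjusted p = 0.022 and 0.039). *Cbll1* passed in RBC, with ratios of 1.74 and 1.91 (0.87, adjusted p = 0.023), and not in WT26, with 1.11 and 1.88 (0.51, adjusted p = 0.12), although it passed there with a replicate block separate for input and IP (0.024). A test of that difference between WT26 and RBC was not made.

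*Mettl3* had ratios of 0.842 and 0.879 in WT26 and 0.77 and 0.571 in RBC (log2 values -0.22 and -0.57, adjusted p = 0.46 and 0.069), and in RBC it passed once blocked on replicate number (0.038) or by the separate block (0.0083). *Mettl14* had 1.06 and 0.693 in WT26 and 1.09 and 0.732 in RBC (-0.20 and -0.18, adjusted p = 0.58 and 0.64). *Mettl16* lay below 1 in every library pair, with 0.689 and 0.535 in WT26 and 0.749 and 0.544 in RBC (-0.73 and -0.62, adjusted p = 0.034 and 0.068), and the RBC value passed with these blocks (0.047 and 0.0037). With scaling by library size the median of all features moved up by 0.38 to 0.47 in the 4 lines, *Mettl16* in WT26 no longer passed, and *Mettl3* and *Mettl14* lay above 0 in WT26. So the depletion is one relative to the typical feature.

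**Figure D3:**
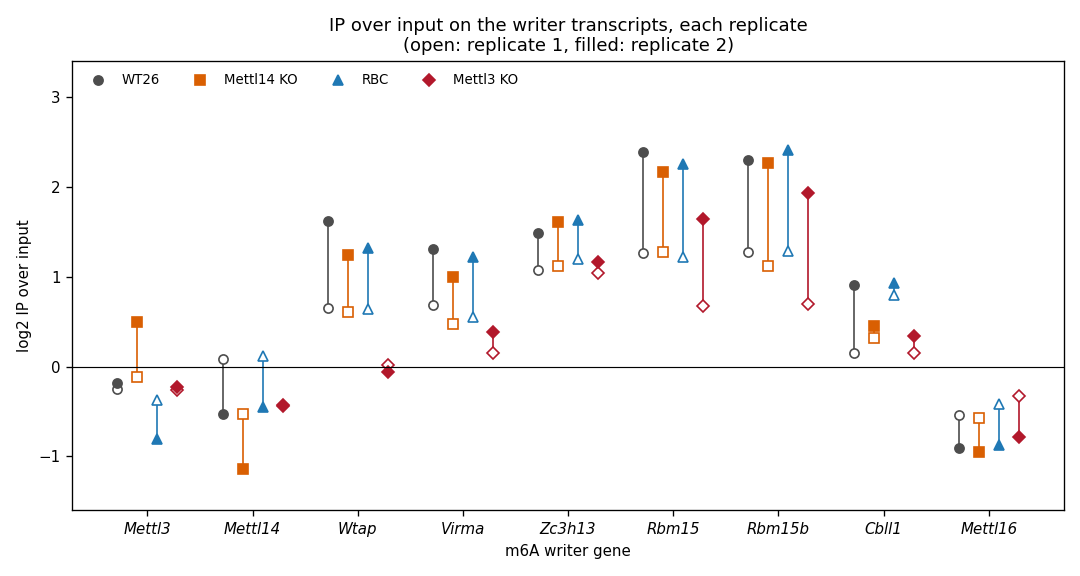
log2 IP over input of each writer transcript in the 4 lines, from normalised counts, with replicate 1 open and replicate 2 filled and joined by a line. *Rbm15*, *Rbm15b* and *Zc3h13* are above 0 in all 8 library pairs, *Mettl16* is below 0 in all 8, and *Wtap* is near 0 in *Mettl3* KO cells alone among the lines.

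In *Mettl14* KO cells 4 members were enriched and 1 was depleted (13.5% and 12.0% of all features). Without the IP or the input of replicate 2 the enrichment calls were lost here too, for the members and for nearly all other features. The ratios were 2.42 and 4.5 for *Rbm15*, 2.18 and 4.82 for *Rbm15b*, 2.18 and 3.05 for *Zc3h13* and 1.52 and 2.36 for *Wtap*, with log2 values of 1.81 (adjusted p = 0.019), 1.81 (0.017), 1.39 (0.0063) and 0.96 (0.043). When each input was paired with its IP in the fit, the adjusted p of *Wtap* was 0.05006, just past the limit. *Virma* had 1.39 and 1.99 (0.78, adjusted p = 0.077, and 0.022 in the fit blocked on replicate number). *Mettl14* itself had ratios of 0.696 and 0.453, the second the lowest among the members in that replicate, and a log2 value of -0.77 (adjusted p = 0.058, against 0.037 in that blocked fit and 0.047 by DESeq2), and *Mettl16* had 0.673 and 0.517 (-0.77, adjusted p = 0.035). *Mettl3* had 0.921 and 1.41 (0.18, adjusted p = 0.57), and *Cbll1* 1.25 and 1.37 (0.39, adjusted p = 0.25).

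In *Mettl3* KO cells edgeR and DESeq2 each called 0 of 9 members depleted, with 1 lower at an unadjusted p under 0.05. DESeq2 called 2 enriched, *Zc3h13* (adjusted p = 0.00022) and *Rbm15b* (adjusted p = 0.028), beside 1333 of 22621 features. By edgeR 1 of 9 members was enriched, where 2.78% of tested features were enriched and 2.22% depleted. This was *Zc3h13*, with 2328.8 and 2010.3 normalised counts in the inputs and 4807.7 and 4507.2 in the IPs (ratios 2.06 and 2.24, log2 value 1.10, SE 0.236, adjusted p = 0.022), and its adjusted p was 0.055 to 0.22 without any one of the 4 libraries of that line. *Rbm15* still had ratios of 1.59 and 3.12 (log2 value 1.24, adjusted p = 0.13) and *Rbm15b* of 1.62 and 3.83 (1.40, adjusted p = 0.085). Both passed with the replicate number as a block (adjusted p = 0.032 and 0.027), and with a block separate for input and IP (1.07e-05 and 9.00e-06), a fit in which 16.8% of features were enriched. *Wtap* was not recovered above its input, at 1157.1 and 1185.0 normalised counts in input and 1176.7 and 1138.5 in IP (ratios 1.02 and 0.961, log2 value -0.02, SE 0.32, adjusted p = 0.99). *Virma* had ratios of 1.11 and 1.31 (0.28, adjusted p = 0.59), *Cbll1* 1.11 and 1.27 (0.25, adjusted p = 0.54), *Mettl3* 0.833 and 0.857 (-0.25, adjusted p = 0.52), *Mettl14* 0.746 and 0.739 (-0.43, adjusted p = 0.34) and *Mettl16* 0.796 and 0.582 (-0.54, adjusted p = 0.18). *Mettl16* passed with the separate block (adjusted p = 0.015).

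The change of IP over input between a knockout and its control was then tested. None of the 9 members passed in either knockout by edgeR (0 and 1 at an unadjusted p under 0.05) or DESeq2, and 0 of 22621 features passed (0.0%). The values differed in size all the same. In *Mettl3* KO cells the members' median change was -0.53 on the log2 scale (0.01 over all features). The transcripts of the regulatory subunits had a lower ratio than RBC in both replicates. How often this occurred among all features was not counted, so nothing particular to the members is read from it. The scaling holds the median of all features near 0, and the spread around it narrowed in this line: the 90th percentile of log2 IP over input over all features was 0.902 and 1.428 in *Mettl3* KO against 1.144 and 1.918 for RBC, and the 7 tested genes of the S-adenosylmethionine cycle, 5 of them depleted in RBC, had a median change of 0.33. The median change was 0.14 for 12 reader genes, which bind m6A, and -0.40 for the 2 demethylases. It was -0.0094 for 5 genes of other methyltransferases of adenosine at N6 and their partner. Whether the members' lower ratios go beyond this narrowing was not tested. *Wtap* had the largest, -0.62 in replicate 1 and -1.38 in replicate 2 (fitted change -1.07, SE 0.453, adjusted p = 0.85). The fitted changes were -0.65 for *Virma* (SE 0.433), -0.63 for *Rbm15* (SE 0.665), -0.62 for *Cbll1* (SE 0.349), -0.53 for *Rbm15b* (SE 0.637) and -0.32 for *Zc3h13* (SE 0.331). *Mettl3* (0.33, SE 0.319) and *Mettl16* (0.08, SE 0.341) were on the other side in both replicates, and *Mettl14* (-0.25, SE 0.388) was mixed. With the separate block the adjusted p was 0.12 for *Wtap*, 0.13 for *Virma* and *Rbm15*, and 0.16 to 0.63 for *Rbm15b*, *Cbll1*, *Zc3h13*, *Mettl3* and *Mettl14*.

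In *Mettl14* KO cells the members' median change was -0.12 (0.02 over all features). The lowest was *Mettl14*, -0.61 in each replicate (fitted change -0.56, SE 0.392), and the highest *Mettl3*, 0.13 and 0.68 (0.40, SE 0.32). The 7 others lay between -0.27 and 0.10. Adjusted p-values were 1.0 throughout. The difference between the knockouts in this change passed for none of the members (0 at an unadjusted p under 0.05, and 0 by DESeq2). Of all 22621 features 0 passed too (0.0%), so nothing particular to the members is read from it. The largest member value was 0.84 (SE 0.639), for *Wtap*.

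**Figure D4:**
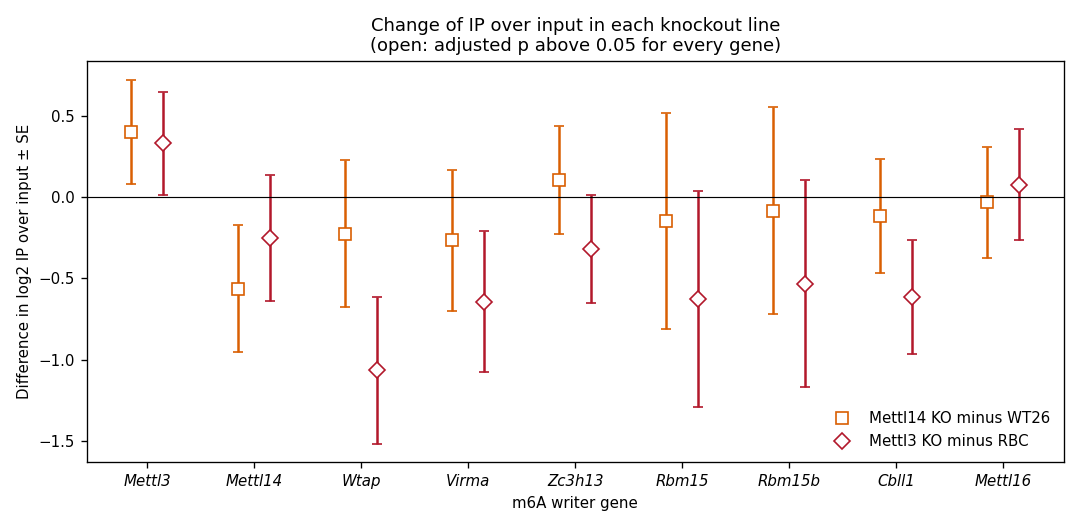
Difference in log2 IP over input between each knockout and its control, with SE, for the 9 writer transcripts; all symbols are open because no adjusted p was at most 0.05. *Wtap* is the lowest in *Mettl3* KO cells, at -1.07, and *Mettl14* the lowest in *Mettl14* KO cells, at -0.56.

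The other genes of the m6A pathway were read from the same RNA-seq fits. Of 12 reader genes, which bind m6A, 2 were higher and 6 lower after loss of Mettl14, and 2 higher and 2 lower after loss of Mettl3, beside 25.5% and 27.0% of all tested genes in the one and 25.2% and 28.1% in the other. The largest changes in *Mettl14* KO were *Ythdf2* (log2 fold change -0.53), *Igf2bp1* (-0.44) and *Ythdf3* (-0.42). The YTHDF proteins are known to promote decay of methylated mRNA, and the IGF2BP proteins to stabilise it. In *Mettl3* KO cells they were *Igf2bp2* (0.91), *Hnrnpc* (-0.40) and *Ythdf2* (0.29). RBC itself differed from WT26 in the opposite direction for *Igf2bp2* (log2 difference -0.98, adjusted p = 1.79e-07) and *Hnrnpc* (0.42, adjusted p = 1.12e-05). For *Ythdf2* this difference was 0.12 (adjusted p = 0.16). *Ythdf2* thus changed in opposite directions, and the difference between the knockouts was -0.82 (adjusted p = 1.59e-06).

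Of the 2 demethylases, *Fto* rose in both knockouts (0.31 and 0.26, adjusted p = 0.0015 and 0.0055), and *Alkbh5* fell in *Mettl14* KO (-0.19, adjusted p = 0.019) and rose in *Mettl3* KO cells (0.17, adjusted p = 0.032). Of 5 genes for other methyltransferases of adenosine at N6 and their partner, 2 were higher and 2 lower in *Mettl14* KO (52.5% of all tested genes passed). The largest were *Trmt112* (-0.94), *Mettl5* (-0.47) and *Zcchc4* (0.44). *Mettl5* with its partner *Trmt112* methylates 18S rRNA and *Zcchc4* methylates 28S rRNA. *Zcchc4* alone of these passed in *Mettl3* KO cells (0.20), where 53.4% of all tested genes did. Of 8 genes of the S-adenosylmethionine cycle 7 were tested, *Mat1a* being too low. In *Mettl14* KO 2 were higher and 3 lower (25.5% and 27.0% of all tested genes), with *Mtr* (-0.50), *Mat2b* (-0.44) and *Ahcyl2* (0.34) as the largest, and in *Mettl3* KO cells 2 were higher and 2 lower (25.2% and 28.1%), with *Ahcyl1* (0.96), *Ahcyl2* (0.44) and *Mat2a* (-0.32). *Mat2b* is the regulatory partner of *Mat2a*, and *Mtr* remakes methionine.

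Patterns like those of the catalytic pair were described over the 8 RNA-seq libraries among 11852 genes with a mean of at least 50 normalised counts. Pearson correlations of log2(normalised count + 1) with *Mettl3* were highest for *Kcp* (0.98), *Fam228b* (0.98) and Gm22571 (0.97), and those with *Mettl14* were among the highest for *Fam206a* (0.98) and *Nucks1* (0.98). The points are 4 lines with 2 replicates each, so these values reflect line means.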

How the data were processed

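Nuclear RNA of 4 ES cell lines was measured by RNA-seq (8 libraries) and MeRIP-seq (8 inputs and 8 IPs). The authors deposited raw read counts per gene, and for MeRIP-seq per gene and repeat. MeRIP-seq reads were trimmed with cutadapt 1.8.1, aligned to GRCm38 with STAR 2.6.0c and counted with TEtranscripts, multimapping reads included, and 3 MeRIP reactions were combined per replicate. Libraries were TruSeq Stranded Total RNA. The RNA-seq aligner setting, counting tool and strand setting are not given in the sources used here.

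Of 47937 gene identifiers, 47310 had a symbol in the GENCODE M21 annotation. Counts were scaled by the size factors of DESeq2 1.42.0, filtered with filterByExpr and tested by the quasi-likelihood test of edgeR 4.0.16 (R 4.3.3) on all libraries of a table, with Benjamini-Hochberg adjustment over 17021 genes (RNA-seq) or 22621 features (MeRIP-seq) and a limit of 0.05. The SE is the log2 value divided by the square root of F. "Higher", "rose", "enriched" and the like refer to that limit alone. Tables used Python 3.11.15, and the tests were tested on simulated data. Depth sets counting error only, and with 2 replicates the spread between them limits the precision.

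The members and lists were chosen with earlier results of these data known. All members are named; of other lists, genes past the limit and among the 3 largest changes, and *Mat2a* in any case. IP and input of one number come from the same RNA (correlation of deviations 0.195 to 0.28), and same-numbered libraries of different lines deviated together in IP (0.598 to 0.806) and input (0.251 to 0.452), although the labels state no shared day. Alternatives were DESeq2's Wald test, TMM, library size, size factors from genes, other filters, only the libraries compared, replicate blocks, a fold limit and leaving out each library. The block separate for input and IP was chosen after seeing the data. Peak calls and repeats were not analysed here. Protein and promoter sequences are not shown. One result on likeness to *Mettl14* is not reported here.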

Additional observations from a re-analysis of the deposited data

Results flagged for a closer look

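The responses of 5 writer genes differed between the knockouts in RNA-seq, by a test of the difference itself (*Mettl14* KO minus WT26, less *Mettl3* KO minus RBC). The difference was -0.97 on the log2 scale for *Rbm15*, -0.66 for *Virma*, -0.65 for *Cbll1*, -0.37 for *Wtap* and 0.57 for *Mettl3*. Among all tested genes 43.2% passed this test, so a share of 5 in 9 is near the background. The knockouts come from different parental lines and are single clones, and line, clone and knocked-out gene cannot be told apart here.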

How the results depend on the processing

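Of 1710 alternative values for single members, 1513 kept their direction and their side of the limit, 42 came to pass it, 77 no longer passed and 78 changed sign. A log2 fold limit of 1 left 0 members in each RNA-seq comparison, in either direction. Of 17021 genes, 1353 stayed higher and 1118 lower after loss of Mettl14. After loss of Mettl3 1047 stayed higher and 1265 lower. Between the control lines 827 stayed higher in RBC and 701 lower. For the difference between knockouts these were 1374 and 1005. The same limit left 0 depleted member transcripts in WT26 and *Mettl14* KO. Among 22621 features that limit left 3064 depleted in WT26 and 2241 in *Mettl14* KO. Scaling by library size moved the median of all features by 0.15, -0.15 and -0.18 in the RNA-seq comparisons of *Mettl3* KO, of the control lines and of the knockouts' difference, and by 0.12 in the inputs of *Mettl3* KO. It gave 2 members lower in RBC than WT26 and 7 lower in the difference between knockouts, beside 5496 and 5170 of 17022 genes. With this scaling 0 members were depleted in WT26 and *Mettl14* KO, beside 1719 and 1005 of 22700 features. In *Mettl3* KO cells 3 were enriched, beside 2760 of 22700 features.

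Signs that turned with library size belong to *Mettl14* (0.053) and *Rbm15b* (0.035) in *Mettl3* KO RNA-seq, *Virma* (-0.020) and *Rbm15* (-0.14) between the control lines, *Rbm15b* (-0.12) in the difference, *Mettl3* (0.19) and *Mettl14* (0.23) in the IP over input of WT26, *Mettl14* (0.26) in RBC, *Mettl3* (0.14) and *Wtap* (0.36) in *Mettl3* KO, and *Mettl16* (-0.001) in its change there. In *Mettl3* KO inputs they belong to *Mettl3* (0.054), *Mettl14* (0.044), *Wtap* (0.087) and *Rbm15b* (0.063). TMM turned *Wtap* in the IP over input of *Mettl3* KO (0.039) and *Mettl16* in the change of *Mettl14* KO (0.023), and the fit of only the libraries compared turned *Wtap* (0.023).

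Without a filter, and with only the libraries compared, 0 transcripts were depleted in WT26 and *Mettl14* KO and 3 were enriched in *Mettl3* KO. Among 37871 features without a filter, 4067 and 3301 were depleted and 1750 enriched. With only the libraries compared these were 3147 of 20345, 2029 of 19565 and 1878 of 19859. That fit also gave 3 members enriched in RBC and 1 higher in *Mettl3* KO inputs, beside 2730 of 19556 and 771 of 19146 features. DESeq2, size factors from genes and a minimum of 10 counts each gave 2 depleted in *Mettl14* KO. In these fits 3077 of 22621, 3008 of 22564 and 2010 of 14323 features were depleted. DESeq2 gave 2 enriched in *Mettl3* KO, beside 1333 of 22621 features. Size factors from genes gave 1 depleted in RBC, beside 3249 of 22564. The cause was not tested.

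The replicate number as a block gave 1 member lower in *Mettl3* KO RNA-seq (*Mettl3*, -0.17), 2 depleted in *Mettl14* KO and in RBC, and 3 enriched in *Mettl3* KO. Beside these, 4810 of 17021 genes were lower, and of 22621 features 3874 and 4308 were depleted and 1694 enriched. The separate block, chosen after seeing the data, gave 2 and 2 depleted in *Mettl14* KO and RBC, 3 enriched and 1 depleted in *Mettl3* KO, 1 higher in *Mettl3* KO inputs, and turned *Wtap* (0.018) in *Mettl3* KO. Of 22621 features it gave 5606 and 5820 depleted in *Mettl14* KO and RBC. In *Mettl3* KO 3809 were enriched and 3863 depleted, and 755 were higher in the inputs. RNA-seq libraries of the same number did not deviate together in each pair of lines (correlations -0.172 to 0.453), so they share only a number. Pairing input with IP changed no call other than that of *Wtap* in *Mettl14* KO.

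Leaving out 1 library gave 2 to 4 lower members in *Mettl14* KO RNA-seq and 0 to 1 in *Mettl3* KO. A lone sample was assumed to vary like the other groups. The calls over all genes and features shifted as well with the library left out. Nothing particular to the members is therefore read from the member counts of these fits. The numbers of enriched transcripts were 0 to 5 in WT26, 0 to 5 in *Mettl14* KO, 0 to 6 in RBC and 0 in *Mettl3* KO, with 0 depleted in WT26, 0 to 1 in *Mettl14* KO and 0 to 2 in RBC. Ranges that crossed 0 in RNA-seq were -0.32 to 0.083 for *Cbll1* in *Mettl14* KO, -0.25 to 0.018 for *Rbm15b* in *Mettl3* KO, -0.035 to 0.043 for *Rbm15*, -0.16 to 0.10 for *Rbm15b* and -0.29 to 0.11 for *Cbll1* between control lines, and -0.075 to 0.19 for *Rbm15b* in the difference. In IP over input they were -0.38 to 0.061 for *Mettl14* in RBC and -0.039 to 0.0097 for *Wtap* in *Mettl3* KO. In the change for *Mettl14* KO they were -0.60 to 0.23 (*Wtap*), -0.67 to 0.14 (*Virma*), -0.18 to 0.35 (*Zc3h13*), -0.77 to 0.62 (*Rbm15*), -0.79 to 0.60 (*Rbm15b*), -0.38 to 0.095 (*Cbll1*) and -0.23 to 0.14 (*Mettl16*), and for *Mettl3* KO -1.21 to 0.12 (*Rbm15*), -1.13 to 0.039 (*Rbm15b*) and -0.19 to 0.40 (*Mettl16*). In the difference of these changes they were -0.16 to 0.27 (*Mettl3*), -0.78 to 0.024 (*Mettl14*), -0.022 to 0.79 (*Virma*), -0.26 to 1.25 (*Rbm15*), -0.26 to 1.14 (*Rbm15b*) and -0.43 to 0.16 (*Mettl16*). In the inputs they were -0.096 to 0.0078 (*Rbm15b*), -0.22 to 0.25 (*Cbll1*) and -0.087 to 0.29 (*Mettl16*) for *Mettl14* KO, and -0.19 to 0.044 (*Mettl3*), -0.27 to 0.18 (*Mettl14*), -0.13 to 0.086 (*Wtap*), -0.016 to 0.20 (*Zc3h13*) and -0.18 to 0.045 (*Rbm15b*) for *Mettl3* KO.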
